A study of Mus musculus with 2 samples.

Results

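The genes described here were already expressed in a mouse T-cell leukemia while Ikaros was silenced and stood at 4 times that level or more in the library made after Ikaros was allowed to return. They were chosen by that measured ratio. A member is a protein-coding gene with a symbol, with at least 5 CPM (counts scaled to a library total of 1000000) in the untreated library and at least 4 times that CPM in the Dox library. Of the 27179 genes of the table, 20979 are protein-coding with a symbol and 9328 of these reached 5 CPM in the untreated library. Of the 9328, 105 (1.13%) met the ratio of 4, and 225 (2.41%) were lower by the same factor. The rule then leaves out 44 of the 105 by name, among them Ikzf1 itself and families such as Gbp, Ifi, Slfn and Gimap, and 61 genes remained. The rule leaves out every name that starts with Mx, so Mxd4, a Myc antagonist gene, is among the 44.

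ALL211 is a primary T-cell acute lymphoblastic leukemia (T-ALL) of the genotype Vav-tTA;TRE-GFP-shIkaros, passed into recipient mice. In cells with this pair of transgenes, the Vav promoter drives a tetracycline transactivator in blood cells, and the transactivator drives GFP linked to a hairpin against Ikaros. Doxycycline (Dox) switches both off. Both groups carry the transgenes. The Dox library came from GFPmid leukemia cells of mice given Dox for 3 days, and the untreated library from GFPhigh cells of mice given none, both sorted from spleen. Each condition has 1 library, although the series design names 2 mice per condition, and all cells derive from 1 leukemia. There is therefore no replicate check and no p-value, and the intervals below are exact 95% intervals of the ratio of counts, which cover counting error only. Treatment, sorting gate and mouse cannot be told apart. Cells given Dox but lacking the hairpin were not analysed here.

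Ikaros is a zinc finger DNA-binding protein of the lymphoid lineage that recruits chromatin remodelling complexes and can repress or activate genes. Loss of its function is frequent in B-cell acute lymphoblastic leukemia and in mouse T-ALL, where the loss cooperates with Notch signalling. A gene that is higher after Ikaros returns may be a direct or an indirect target, and expression values do not separate these. Type I interferons, which induce many of the genes below, signal through STAT and IRF factors that bind the interferon-stimulated response element in promoters.

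The libraries held 16484613 counts (Dox) and 16960042 counts (untreated), and 15995 and 15487 genes had at least 1 count. Ikzf1, the gene of the hairpin target, was at 1221 CPM in the Dox library and 121 CPM in the untreated library, the direction its label gives. T-cell markers were abundant in both: all 8 (Cd3e, Cd3d, Cd3g, Cd2, Cd5, Lck, Thy1 and Lat) reached at least 134 CPM in each library, and 7 of the 8 lay within 2-fold. Markers of other cell types were mostly higher in the Dox library. The 16 macrophage markers summed to 215 CPM in the Dox library and 31.2 CPM in the untreated library, from 1.76 to 96.2 CPM per gene against 0.354 to 15.6 CPM. The 10 dendritic cell markers summed to 2022 and 625 CPM, but nearly all of that was Ccr9 and Bst2, which T-lineage cells also express. The other 8 summed to 48.3 CPM in the Dox library and 1.12 CPM in the untreated library, where 5 of them had 0 counts. The 7 erythroid markers summed to 77.4 and 10.8 CPM. B-cell, natural killer, neutrophil and platelet markers each summed to at most 10.3 CPM in the Dox library and 5.19 CPM in the untreated library, and no counts of Pax5 or Ebf1 were found in either. Plasma cell markers summed to 76.1 and 85.7 CPM, and stroma and endothelium markers to 40.2 and 88.0 CPM. None of the 61 genes is in a marker list. Few markers of other cell types could be, since a member needs 5 CPM in the untreated library. That level was reached by 1 of the 16 macrophage, 2 of the 10 dendritic cell and 0 of the 7 erythroid markers. In such bulk RNA, a different mix of cells and a different level per cell cannot be told apart.

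**Figure D1:**
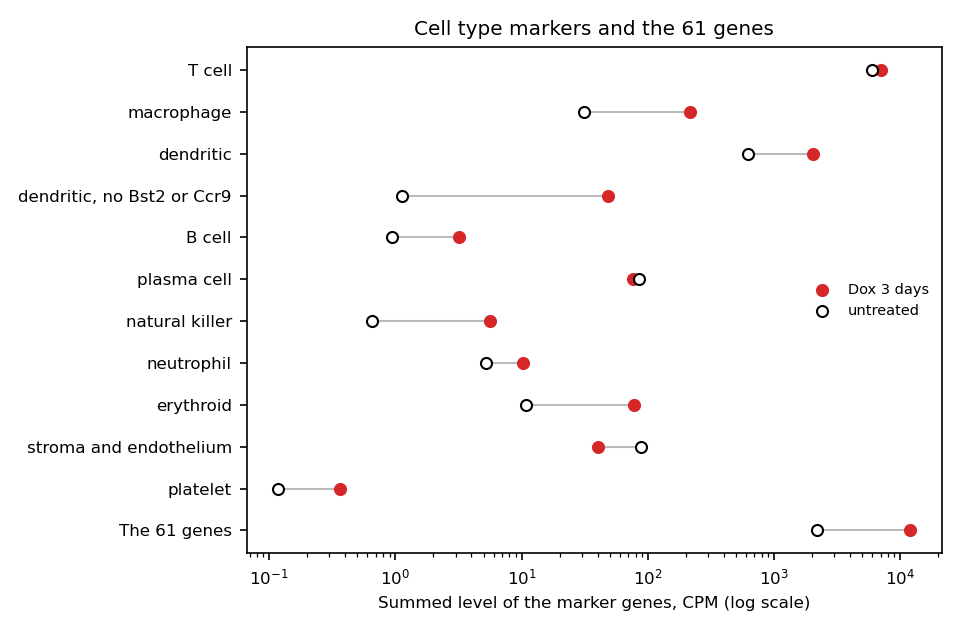
Summed level of the marker genes of each cell type, and of the 61 genes, in the Dox library (filled) and the untreated library (open), in CPM on a log axis. T-cell markers are nearly level at 7057 and 6027 CPM, macrophage markers are at 215 and 31.2 CPM, and the 61 genes are at 12033 and 2185 CPM.

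Together the 61 genes took 12033 CPM of the Dox library and 2185 CPM of the untreated library, or 1.20% and 0.219% of all counts. Their ratios of Dox to untreated ran from 4.03 to 14.9, with a median of 5.26 and quartiles of 4.47 and 7.03. The rule fixes this direction. For 49 of the 61 the whole counting interval lay at or above 4, and for the other 12 it reached below 4, at the lowest to 3.42. Counts were ample for each gene, from 439 to 18678 in the Dox library and from 87 to 3604 in the untreated library. The median log2 ratio of the members was 2.40, against -0.07 over all 9328 genes.

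The levels of the members in each library were shaped by the rule, since a ratio of 4 or more favours genes low in the untreated library and high in the Dox library, and they are given as a description. Their median was 19.99 CPM in the untreated library, where the median of the 9328 genes was 49.9 CPM, and 33 of the 61 lay in the lowest 25% of those genes. In the Dox library their median was 124 CPM, against 48.2 CPM for the 9328 genes. Per gene length (TPM, counts per kilobase, scaled to the same total in each library), 17 members ranked among the top 1000 protein-coding genes in the Dox library and 3 in the untreated library. Those 3 were Srgn, Ms4a4b and Ltb.

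**Figure D2:**
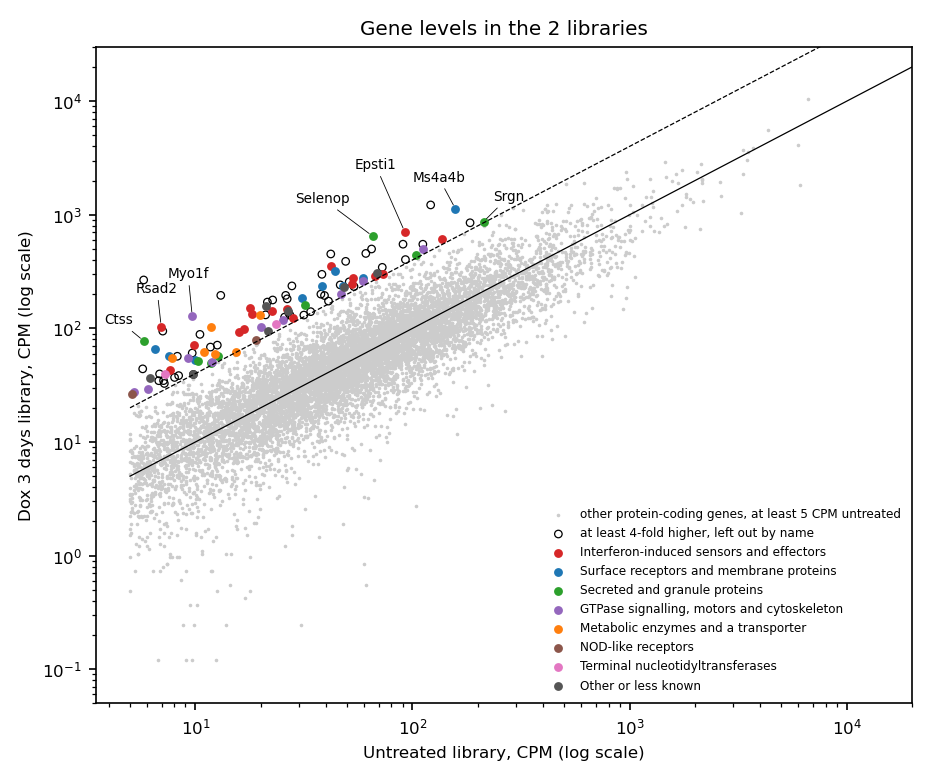
Level of each protein-coding gene with at least 5 CPM in the untreated library (x axis) and in the Dox library (y axis), both in CPM on log axes. The solid line marks equal levels and the dashed line a ratio of 4. The 61 genes are coloured by role, open circles are the 44 genes left out by name, and 6 genes with 0 counts in the Dox library are not drawn. Ms4a4b and Srgn stand at the upper right of the members, at 1133 and 870 CPM in the Dox library.

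The largest group of members, 17 of 61, were interferon-induced genes with names that the rule does not exclude. Their summed level was 3898 CPM in the Dox library and 687 CPM in the untreated library. Rsad2 (Entrez gene 58185, chr12:26442743-26456452 on GRCm38.p6) encodes viperin, an enzyme that makes a chain-terminating nucleotide against viruses. It had the highest ratio of all 61 genes, with 103.9 CPM in the Dox library and 6.96 CPM in the untreated library, from 1713 and 118 counts (ratio 14.9, interval 12.4 to 18.2). Cmpk2, a mitochondrial nucleotide kinase gene, is the next protein-coding gene to Rsad2 on chromosome 12. It was at 148.5 and 26.4 CPM, a ratio of 5.62.

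The group held 3 sensors of viral RNA of the RIG-I class or related helicases. Ddx58, which encodes RIG-I, was at 279.8 CPM in the Dox library and 53.5 CPM in the untreated library (ratio 5.23, interval 4.87 to 5.62). Dhx58, which encodes the related LGP2, was at 97.9 and 16.8 CPM. Ddx60, a further helicase gene of antiviral defence, was at 43.1 and 7.61 CPM. The ratios of Dhx58 and Ddx60, 5.83 and 5.67, lay close to that of Ddx58, and the intervals of all 3 overlap. Zbp1, a sensor of Z-form nucleic acids that can start necroptosis, was at 353.2 CPM in the Dox library and 42.1 CPM in the untreated library (ratio 8.39, interval 7.76 to 9.08).

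Other interferon-induced members act as effectors or brakes. Usp18, a protease that removes ISG15 and restrains the type I interferon receptor, was at 92.4 and 15.9 CPM (ratio 5.82). In the Dox library Epsti1 was the most abundant of the 17 per gene length, at 569 TPM. It was at 72.0 TPM in the untreated library, below Sp100 (114.6 TPM) and Rtp4 (77.4 TPM). Its ratio of CPM was 7.69. Sp100, a component of PML nuclear bodies, was at 611.7 and 136.3 CPM, a ratio of 4.49. Samd9l, an antiviral and growth-restraining gene, was at 244.7 and 52.8 CPM. Xaf1, a binding partner of the apoptosis inhibitor XIAP, was at 124.4 and 28.3 CPM. Rtp4 was at 288.9 and 67.1 CPM, and Helz2, a helicase gene and nuclear receptor coactivator, at 299.4 and 72.9 CPM, the lowest ratio of the 17 (4.11, interval 3.86 to 4.37).

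Some interferon-induced members have near-identical copies, so that reads could be split or lost between them. Tgtp1 and Tgtp2 encode GTPases of the IRG family, and their transcripts align at 99.8% identity over 2811 bases. They were at 71.2 and 143.2 CPM in the Dox library, against 9.91 and 22.5 CPM in the untreated library, and reads may be wrongly divided between them. Phf11b and Phf11c, PHD finger genes, were at 134.9 and 152.3 CPM in the Dox library, against 18.3 and 17.8 CPM in the untreated library. Phf11b shares 97.0% identity over 864 bases with Phf11a, a gene of the same cluster that was at 17.3 and 1.18 CPM.

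Promoter windows were read from RefSeq on GRCm38.p6, the same assembly as the mm10 build of the counts. Each window runs from 250 bases before to 50 bases after an annotated start of a gene, and 51 of the 61 genes had 66 windows. Such a start can lie inside the gene. The letters GAAA, any 2 bases and GAAA again, the core of the interferon-stimulated response element, were searched on both strands. They were found in 10 of the 51 genes (19.6%), against 3.72% of the 7628 genes with at least 5 CPM in the untreated library that had a window and 3.99% of 16783 protein-coding genes of the table. Of the 13 interferon-induced members with a window 6 held a match, and of the 38 other members 4 did. Of the genes left out by name, 16 of 34 held one. In shorter windows, from 150 bases before to 50 after the start, 6 of the 13 interferon-induced members and 1 of the 38 other members (2.63%) held a match, against 2.33% of the 7628 genes. A match is a description of the letters and no evidence that a factor binds. The 5 windows below are shown because they hold these letters, printed in capitals. They come from 4 genes of the interferon-induced group and from Ctss, placed by role among secreted and granule proteins. Ctss had a ratio nearly as high as that of Rsad2 and was the 1 other member with a match in the shorter windows. Each gene was given 1 role, so genes outside the group may be interferon-induced too. Tgtp1 (chr11:48992197-48992496, minus strand) and Tgtp2 (chr11:49064163-49064462, minus strand) hold 1 match each, starting 77 and 70 bases before the start. Ddx60 (chr8:61927837-61928136, plus strand) holds 2, Rsad2 (chr12:26456403-26456702, minus strand) 1, read on the other strand, and Ctss (chr3:95526536-95526835, plus strand) 1, starting 21 bases before the start.
Tgtp1: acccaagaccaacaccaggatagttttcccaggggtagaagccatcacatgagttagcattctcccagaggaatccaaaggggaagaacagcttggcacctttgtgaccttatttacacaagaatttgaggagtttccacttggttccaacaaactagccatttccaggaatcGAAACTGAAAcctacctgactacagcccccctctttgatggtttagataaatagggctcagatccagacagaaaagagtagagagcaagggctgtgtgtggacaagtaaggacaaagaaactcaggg
Tgtp2: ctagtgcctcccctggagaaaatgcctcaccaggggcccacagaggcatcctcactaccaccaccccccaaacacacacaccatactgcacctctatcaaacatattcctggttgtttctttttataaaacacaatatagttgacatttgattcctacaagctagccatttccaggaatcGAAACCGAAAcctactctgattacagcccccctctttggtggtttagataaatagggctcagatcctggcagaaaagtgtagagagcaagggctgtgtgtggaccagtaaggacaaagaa
Ddx60: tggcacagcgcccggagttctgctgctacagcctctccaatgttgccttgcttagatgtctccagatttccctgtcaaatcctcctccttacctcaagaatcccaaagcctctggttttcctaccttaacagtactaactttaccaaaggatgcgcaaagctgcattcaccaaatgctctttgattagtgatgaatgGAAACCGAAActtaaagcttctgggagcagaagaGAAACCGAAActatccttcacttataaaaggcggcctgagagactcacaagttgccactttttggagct
Rsad2: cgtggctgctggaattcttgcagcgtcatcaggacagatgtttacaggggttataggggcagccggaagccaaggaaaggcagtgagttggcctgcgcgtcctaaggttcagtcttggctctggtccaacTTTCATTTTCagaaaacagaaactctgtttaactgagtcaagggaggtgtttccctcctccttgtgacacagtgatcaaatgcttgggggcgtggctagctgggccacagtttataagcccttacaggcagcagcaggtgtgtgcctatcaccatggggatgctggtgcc
Ctss: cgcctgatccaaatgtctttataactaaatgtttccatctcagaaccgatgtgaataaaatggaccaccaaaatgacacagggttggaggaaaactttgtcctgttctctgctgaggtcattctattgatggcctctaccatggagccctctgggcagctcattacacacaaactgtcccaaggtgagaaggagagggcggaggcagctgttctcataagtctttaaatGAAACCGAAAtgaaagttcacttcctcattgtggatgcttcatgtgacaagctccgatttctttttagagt

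The same windows were searched for other letters, again on both strands. TGTTTAC, a forkhead site of FOXO factors, was found in 6 of the 51 genes (11.8%), against 3.02% of the 7628 genes and 3.47% of the 16783. The 6 genes were Fcgrt, Hsd11b1, Ltb, Rsad2, Selenop and Spats2l. The letters TGGGAA, the core recognised by Ikaros, were found in 13 of the 51 genes (25.5%), close to 25.9% of the 7628 and 27.1% of the 16783. GGGCGG, the GC box of SP and KLF factors, was found in 43.1% of the 51 genes, against 71.2% of the 7628 and 50.7% of the 16783. For CCGGAAG, an ETS site, the shares were 9.80%, 24.0% and 13.3%. TGTGGT, a RUNX site, was found in 15.7%, 14.5% and 16.8%, TGANTCA, the AP-1 site, in 11.8%, 5.27% and 8.25%, CACGTG, the Myc E-box, in 3.92%, 12.5% and 9.17%, and GGGA, any 4 bases and CC, an NF-kappaB core, in 21.6%, 29.9% and 25.9%. Some of these letters overlap in 1 window, as TGGGAA and the NF-kappaB core can. The windows of Ltb (chr17:35194257-35194556, plus strand) and Hsd11b1 (chr1:193242311-193242610, minus strand) are shown for the forkhead letters, in capitals, which are read on the other strand as TGTTTAC and begin 124 and 138 bases before the start. The start used for Hsd11b1 lies inside the gene, which spans chr1:193221640-193264045. The start beside the forkhead letters of Spats2l lies inside its gene too.
Ltb: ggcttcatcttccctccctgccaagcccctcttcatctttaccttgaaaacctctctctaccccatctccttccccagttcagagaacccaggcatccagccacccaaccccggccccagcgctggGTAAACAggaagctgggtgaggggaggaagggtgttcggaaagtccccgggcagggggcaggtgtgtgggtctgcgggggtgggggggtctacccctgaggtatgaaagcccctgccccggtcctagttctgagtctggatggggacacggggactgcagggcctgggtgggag
Hsd11b1: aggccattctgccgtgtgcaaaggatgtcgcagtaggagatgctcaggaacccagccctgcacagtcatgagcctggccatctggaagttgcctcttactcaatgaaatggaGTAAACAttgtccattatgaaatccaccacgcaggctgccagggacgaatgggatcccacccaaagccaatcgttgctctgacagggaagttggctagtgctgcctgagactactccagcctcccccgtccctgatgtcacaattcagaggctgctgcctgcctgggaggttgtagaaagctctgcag

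The members' promoter windows were poor in CpG. The median ratio of observed to expected CpG was 0.327 over the 66 windows of the members and 0.787 over the 9717 windows of the genes with at least 5 CPM in the untreated library. A ratio under 0.4 was found in 38 of 66 windows (57.6%), against 14.02% of the 9717. Over the 20438 windows of all protein-coding genes with a window, the median was 0.587 and 37.9% lay under 0.4. Among interferon-induced members 12 of 14 windows lay under 0.4, and among the other members 26 of 52. Of the windows of genes in the lowest 25% of untreated level, 18.1% lay under 0.4, and of those of genes with levels lower by a factor of 4 or more in the Dox library, 25.3%. The genes left out by name had 34 of 44 windows (77.3%) under 0.4. Gene length had medians of 2816 bases in the members and 2882 bases over the 9328 genes.

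**Figure D3:**
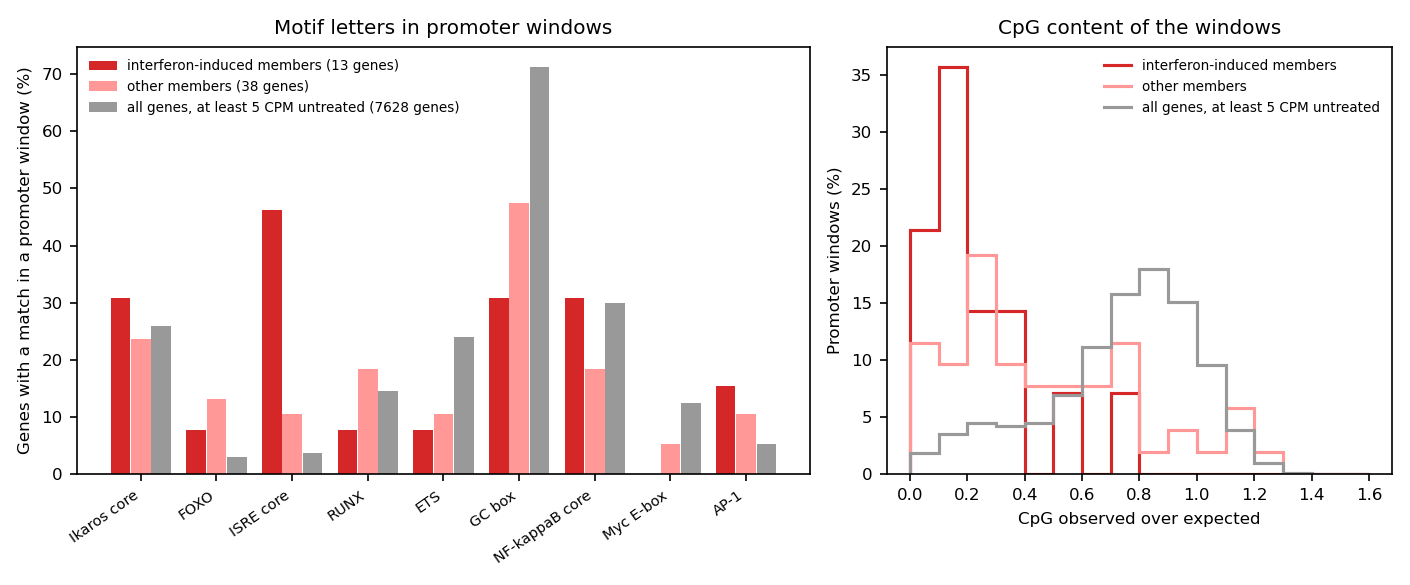
Left, share of genes (%) with each motif's letters in a promoter window, for interferon-induced members, the other members and all genes with at least 5 CPM in the untreated library. Right, distribution of observed over expected CpG in the windows of the same 3 sets, as a share of windows (%). The interferon response element (ISRE) core stands at 46.2% in interferon-induced members and 3.72% in all genes, and the members' windows lie mostly at low CpG.

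Surface and membrane proteins made up 9 of the 61 genes, at 2566 CPM summed in the Dox library and 402 CPM in the untreated library. Ms4a4b (Entrez gene 60361, chr19:11443558-11463549) encodes a 4-transmembrane protein of T cells known as a marker of mature thymocytes. It was at 1133 CPM in the Dox library and 157.5 CPM in the untreated library, from 18678 and 2672 counts (ratio 7.19, interval 6.91 to 7.49). Its difference in CPM between the libraries was the largest of the 61 genes. The next gene on chromosome 19, Ms4a4c, was at 56.8 and 7.55 CPM (ratio 7.52, interval 6.25 to 9.12), so the neighbours had like ratios at very different levels. Gpr174, a receptor for lysophosphatidylserine on lymphocytes, was at 65.9 CPM in the Dox library and 6.54 CPM in the untreated library (ratio 10.1, interval 8.27 to 12.4). Its next gene on the X chromosome is Itm2a, a thymocyte membrane protein gene that was at 989.4 and 255.1 CPM and fell just short of the rule with a ratio of 3.88.

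Among immune receptors, Cd7, a marker of early and mature T cells, was at 234.9 CPM in the Dox library and 38.4 CPM in the untreated library (ratio 6.11). Clec2d encodes a C-type lectin that natural killer cells recognise through an inhibitory receptor. It was at 186.2 and 30.8 CPM (ratio 6.04, interval 5.50 to 6.64). Vsir encodes VISTA, an inhibitory checkpoint protein of T cells and myeloid cells, and was at 238.2 and 47.8 CPM. Il6ra, the interleukin-6 receptor chain, was at 278.4 and 59.4 CPM. Sidt1, a relative of the nematode channel for double-stranded RNA, was at 320.0 and 43.9 CPM. Fcgrt, the neonatal Fc receptor, was at 52.4 and 9.96 CPM. The 9 ratios ran from 4.68 (Il6ra) to 10.1 (Gpr174).

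Secreted, lysosomal and granule proteins made up 8 genes, with ratios from 4.09 to 13.4. Ctss (Entrez gene 13040, chr3:95526786-95556405) encodes cathepsin S, a protease that trims the invariant chain of class II molecules in antigen-presenting cells. It was at 77.6 CPM in the Dox library and 5.78 CPM in the untreated library (1280 and 98 counts, ratio 13.4, interval 10.9 to 16.7). It is known as an abundant gene of macrophages and dendritic cells. The macrophage markers Mpeg1 (96.2 and 1.65 CPM), Tyrobp (11.6 and 0.472 CPM) and Csf1r (8.55 and 1.30 CPM) and the dendritic marker Itgax (10.9 and 0.118 CPM) were higher in the same library. The part of such cells in the ratio of Ctss, Selenop or any other member was not tested. Selenop, the selenium carrier protein, was at 650.3 and 65.4 CPM (ratio 9.94, interval 9.34 to 10.6). Its exons overlap those of Ccdc152 on the opposite strand over 439 bases, and Ccdc152 had 23 counts in the Dox library and 2 in the untreated library.

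Srgn, serglycin, the proteoglycan core of secretory granules, was the most abundant member per length. It was at 1730 TPM in the Dox library and 411 TPM in the untreated library, with a ratio of CPM of 4.09 that lies close to the threshold. Ltb, lymphotoxin beta, a cytokine chain that shapes lymphoid tissue, was at 441.9 and 103.9 CPM (ratio 4.25, interval 4.04 to 4.48). Ecm1, extracellular matrix protein 1, was at 160.8 and 32.0 CPM, and Tgfb3, a transforming growth factor beta, at 51.2 and 10.3 CPM, with ratios of 5.03 and 4.99. Ctla2a, an inhibitor of cathepsins, was at 57.0 and 12.7 CPM. Its copy Ctla2b, at 95.9% identity over 435 bases, was at 5.10 and 2.59 CPM. Naaa, a lysosomal amidase, was at 49.1 and 11.9 CPM.

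Small GTPase signalling, actin and motor functions accounted for 10 members, at 1476 CPM summed in the Dox library and 306 CPM in the untreated library. Myo1f (Entrez gene 17916, chr17:33555707-33607764), a class I myosin of blood cells, was at 128.7 CPM in the Dox library and 9.67 CPM in the untreated library (2122 and 164 counts, ratio 13.3, interval 11.4 to 15.7). Myeloid cells are known to express Myo1f too, and the part of the macrophage markers given above in its ratio was not tested. Rasa3, which switches off Ras and Rap1, was at 500.0 and 112.1 CPM (ratio 4.46, interval 4.24 to 4.69). Gsn, gelsolin, which severs actin filaments, was at 261.6 and 59.1 CPM. Rhof, a small GTPase that promotes filopodia, was at 103.2 and 19.99 CPM, and Trio, an exchange factor for small GTPases, at 27.3 and 5.19 CPM. Exons of Rhof overlap those of Tmem120b on the opposite strand over 523 bases, and Tmem120b was at 33.2 and 19.8 CPM. Tagap, a GTPase-activating protein of T-cell activation, was at 55.0 and 9.26 CPM (ratio 5.94). Its copy Tagap1 shares 99.0% identity over 2152 bases, 70.0% of the Tagap transcript, so reads may be wrongly divided between them. Tagap1 was at 21.9 CPM in the Dox library and 22.9 CPM in the untreated library (ratio 0.957, interval 0.827 to 1.11). Exons of Tagap also overlap those of E430024P14Rik on the opposite strand over 716 bases. Arl5c, an Arf-like GTPase, was at 201.4 and 46.9 CPM, a ratio of 4.29. The adaptor and scaffold genes Patj, Fhl2 and Rflnb were at 118.9, 29.1 and 51.0 CPM in the Dox library, against 25.4, 6.07 and 11.97 CPM in the untreated library.

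Metabolic enzymes and a transporter accounted for 6 members, at 474 CPM summed in the Dox library and 78.2 CPM in the untreated library. Cmah, which converts the sialic acid Neu5Ac to Neu5Gc, was at 103.7 CPM in the Dox library and 11.9 CPM in the untreated library (ratio 8.75, interval 7.55 to 10.2). Hsd11b1, which regenerates active glucocorticoid, was at 55.1 and 7.84 CPM (ratio 7.03, interval 5.86 to 8.50). Pygm and Ampd1, known as the muscle forms of glycogen phosphorylase and AMP deaminase, were at 132.2 and 61.9 CPM in the Dox library, against 19.9 and 10.9 CPM in the untreated library. Acoxl, an acyl-CoA oxidase relative, was at 59.4 and 12.3 CPM. Abcb10, a mitochondrial transporter of heme synthesis, was at 62.0 and 15.4 CPM.

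The NOD-like receptors Nod1, a sensor of bacterial peptidoglycan, and Nlrc3, which restrains T-cell and innate signalling, were at 78.8 and 26.6 CPM in the Dox library, against 19.0 and 5.13 CPM in the untreated library. The terminal nucleotidyltransferases Tent5a and Tent5c, which lengthen poly(A) tails, were at 39.5 and 110.0 CPM in the Dox library, against 7.25 and 23.6 CPM in the untreated library. Tent5c is known as a tumour suppressor in multiple myeloma. The remaining 7 members, Tmem71, Spats2l, Tcp11l2, Fam102a, Gramd3, Calcoco1 and Fam214a, had ratios from 4.07 to 7.38, the highest in Tmem71 (156.2 and 21.2 CPM). In the Dox library the other 6 lay between 36.5 CPM (Spats2l) and 306.1 CPM (Gramd3), against 6.19 and 69.0 CPM for the same genes in the untreated library.

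**Figure D4:**
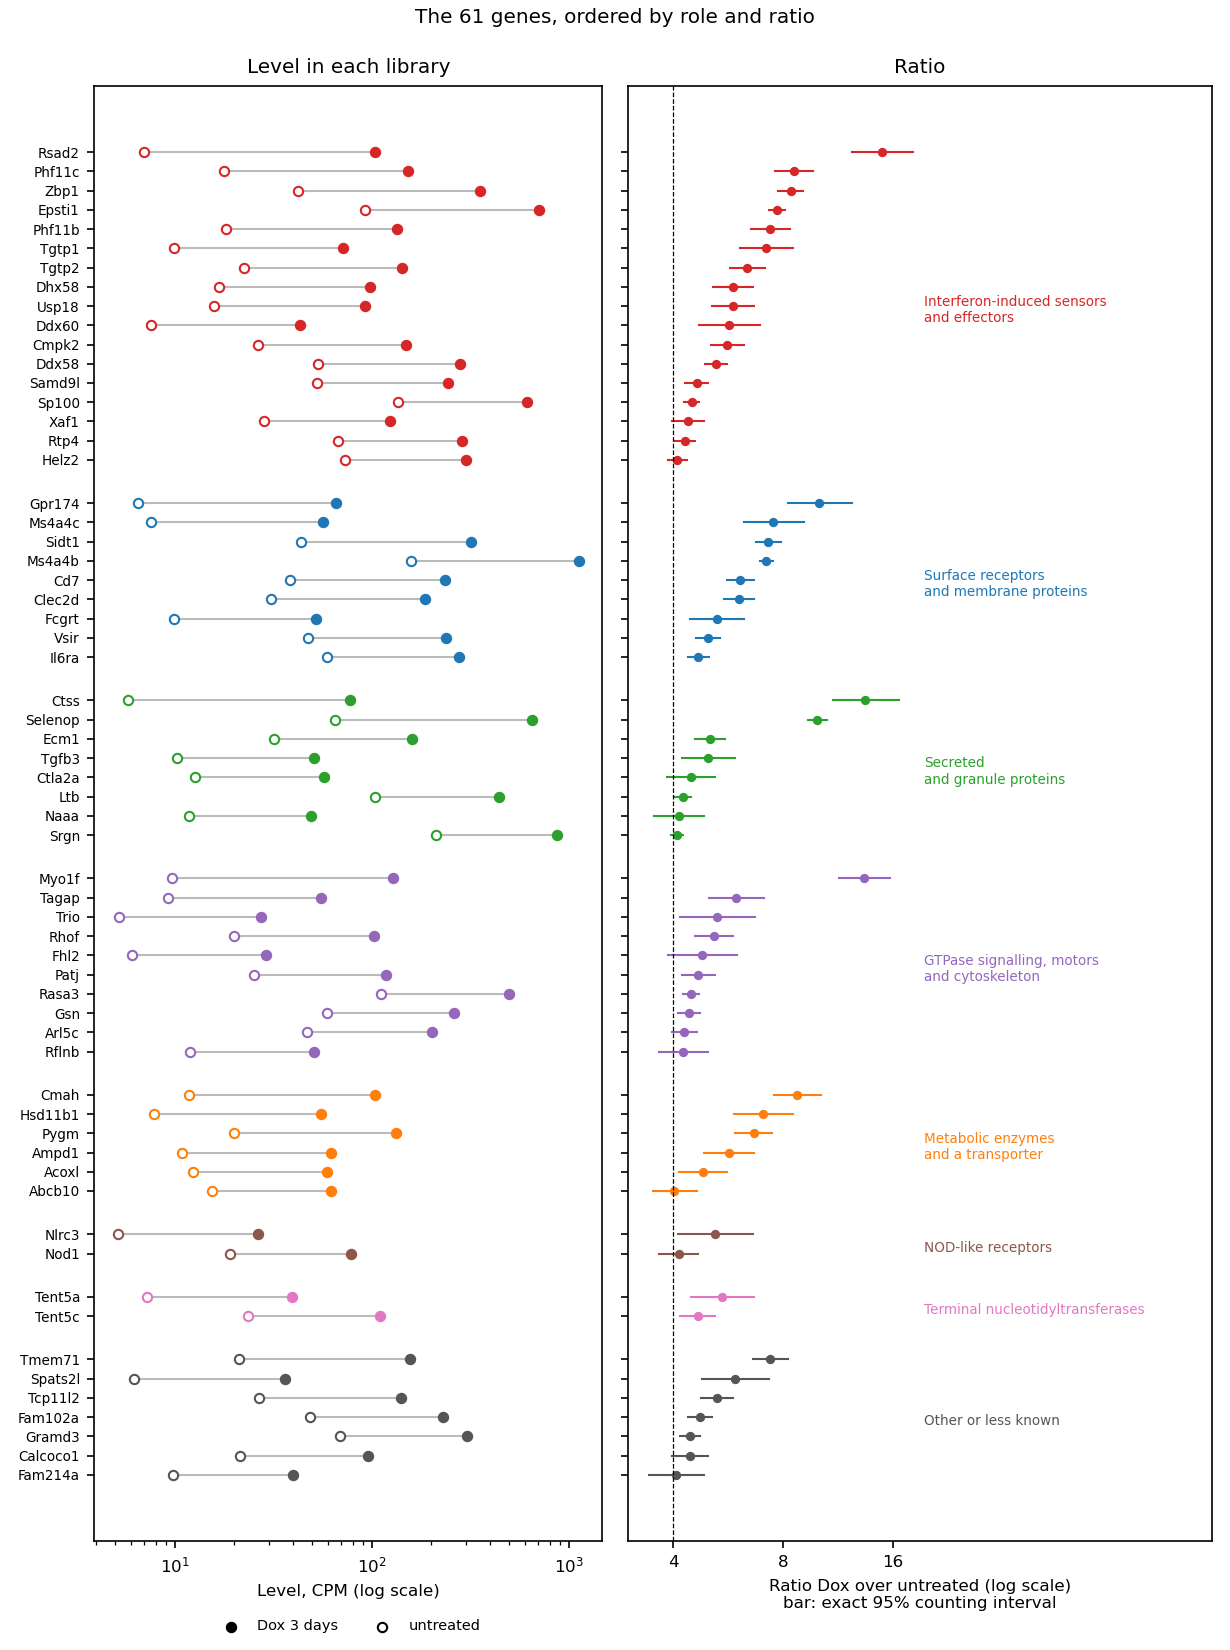
Left, level of each of the 61 genes in the Dox library (filled) and the untreated library (open), in CPM on a log axis. Right, ratio of Dox to untreated on a log axis with its exact 95% counting interval, the dashed line at 4. Genes are ordered by role and then by ratio; Rsad2, Ctss and Myo1f stand apart at 14.9, 13.4 and 13.3.

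Values just inside and just outside the thresholds were close to each other. Abcb10, Fam214a and Srgn were the last genes inside the fold threshold, with ratios of 4.03, 4.07 and 4.09. The first outside were Cd53 (849.0 and 212.9 CPM, ratio 3.99), Flt3l (3.99) and Pgap1 (3.97). The lowest untreated levels inside were 5.13 CPM for Nlrc3, 5.19 CPM for Trio and 5.78 CPM for Ctss. Just outside lay Vipr1, at 21.5 and 4.95 CPM, Nlrc5, the class I transactivator gene, at 37.5 and 4.78 CPM, and Trp53inp2, at 20.9 and 4.07 CPM. Membership of these genes therefore rests on small differences.

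The 61 genes lie on 20 chromosomes, and the next protein-coding gene on each side of a member was looked up. Of 118 measured neighbour positions, 70 had a gene with at least 5 CPM in the untreated library. Of the 70, 16 had a ratio of 2 or more. Over all genes with at least 5 CPM in the untreated library, the share was 7.78%. Of the 16, 4 are the pairs Rsad2 with Cmpk2 and Ms4a4b with Ms4a4c, in which both are members. The rule fixes the ratios of these 4 at 4 or more, so the 16 cannot be set directly against that share. Others were Ripor2 beside Cmah (489.9 and 132.1 CPM, ratio 3.71), Otulinl beside Trio (346.8 and 93.4 CPM, ratio 3.71), Bcl2l11, the gene of the pro-apoptotic protein Bim, beside Acoxl (148.1 and 42.6 CPM, ratio 3.48), and Rasgrp2 beside Pygm (433.5 and 125.8 CPM, ratio 3.45). The neighbours were measured in the same libraries as the members and share their limits.

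Of the 61 genes, 25 are in at least 1 of 13 gene lists of pathways and cell functions, and 36 are in none. Over the 12151 genes of the table with at least 1 CPM in 1 library, 13.4% had a ratio of Dox to untreated of 2 or more and are called higher here, and 13.8% were lower by the same factor. Among interferon-stimulated genes with names outside the excluded families, 41 of 60 were higher by this rule, 0 were lower, and the median log2 ratio was 1.46. Members made up 14 of the 41. They were chosen for a high ratio, which raises the count and the median, so neither can be set directly against the share over all genes. The same holds for members in the other lists. Over genes with at least 5 CPM in the untreated library 33 of 52 were higher, the 14 members among them. Xdh, xanthine dehydrogenase, was a non-member with a large ratio, at 13.5 CPM in the Dox library and 2.06 CPM in the untreated library. Among genes of late thymocyte maturation and egress, 23 of 40 were higher (23 of 39 at 5 CPM) and 0 lower, with a median of 1.24 and the members Ms4a4b, Ms4a4c and Il6ra. Cd53, a tetraspanin of leukocytes, was the non-member closest to the threshold there.

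No FOXO target or FOXO factor was a member, since S1pr1 and Tob1 are left out by name, while 16 of 30 were higher (16 of 29 at 5 CPM) and 0 lower (median log2 ratio 1.24). Btg1, an antiproliferative gene, was at 678.9 and 173.2 CPM. Among lymphocyte surface proteins and immune receptors, 45 of 77 were higher and 2 lower (median log2 ratio 1.20). Some of these passed the 1 CPM level through the Dox library alone, such as Tigit (155 and 5 counts) and the plasmacytoid dendritic cell marker Siglech (101 and 0 counts). Over genes with at least 5 CPM in the untreated library the count was 27 of 56, beside 7.78% of all such genes. The 27 include 4 members, which are higher by their choice.

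For 8 other lists, genes that passed the 1 CPM level only through the Dox library could not be lower, so each count is given beside that over genes with at least 5 CPM in the untreated library, where 7.78% of all genes were higher and 12.5% lower. Among phosphoinositide and diacylglycerol regulators 11 of 41 were higher and 2 lower, and 6 and 1 of 35 at 5 CPM. Among cytokine and chemokine receptors 20 of 43 were higher and 4 lower, and 12 and 4 of 31 at 5 CPM. Among G protein-coupled receptors and regulators 18 of 36 were higher and 3 lower, and 10 and 2 of 25 at 5 CPM. Lymphoid transcription factors gave 19 higher and 2 lower of 67, and 10 and 1 of 53 at 5 CPM. Lysosomal and granule genes gave 18 higher and 0 lower of 38, and 13 and 0 of 33 at 5 CPM. Genes that restrain T-cell receptor signals gave 10 higher and 2 lower of 40, and 9 and 1 of 38 at 5 CPM. Lipid handling genes gave 15 higher and 2 lower of 31 (median log2 ratio 0.70), and 5 and 2 of 21 at 5 CPM, where the median was -0.37. Of 5 developmental and progenitor regulators 3 were higher and 0 lower, but only 2 of the 5 reached 1 CPM in the untreated library, and at 5 CPM 0 of 2 were higher. No lymphoid transcription factor of the list was a member, although 1 gene of the list met both thresholds and was left out by name. Zbtb4, a zinc finger repressor gene, was at 15.1 CPM in the Dox library and 2.18 CPM in the untreated library, and Mxd4, left out by name, at 125.8 and 25.8 CPM. In the other direction, Il2ra, the interleukin-2 receptor alpha chain, was at 3.28 and 60.0 CPM, and Adgrg1, an adhesion receptor gene, at 1.46 and 36.9 CPM.

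**Figure D5:**
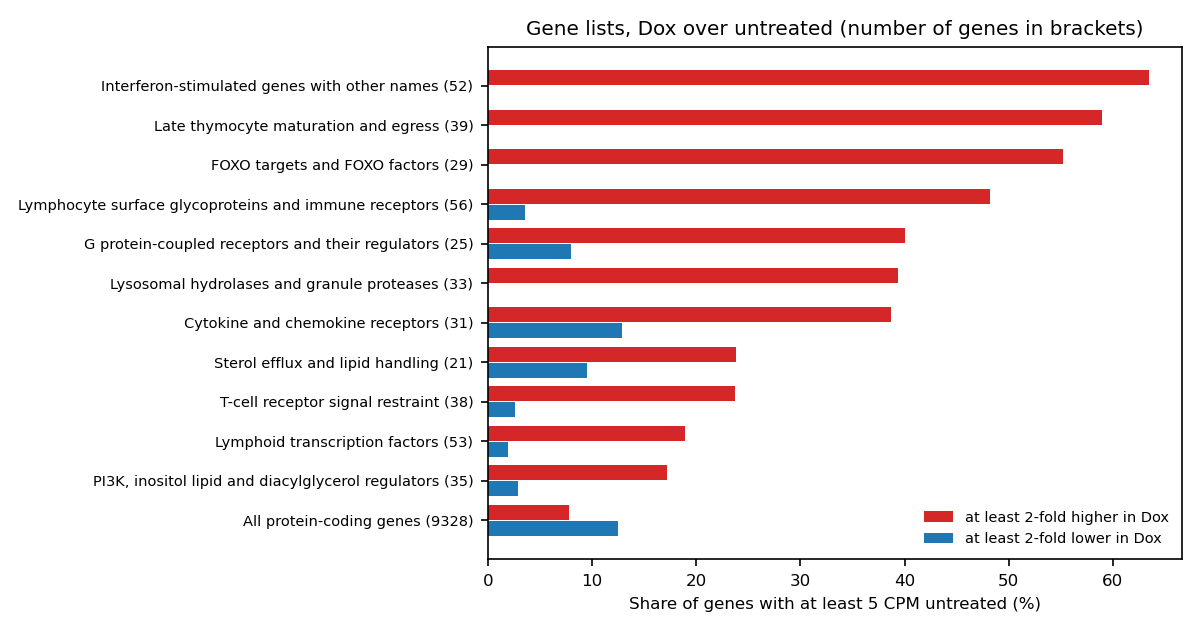
Share of the genes of each list (%) that were higher or lower in the Dox library by a factor of 2 or more, over genes with at least 5 CPM in the untreated library, for 11 lists with at least 20 such genes. The number of genes is in brackets, and the lowest row gives all 9328 genes, of which 7.78% were higher and 12.5% lower. Members in a list are higher by their choice.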

How the data were processed

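RNA sequencing counts of 2 libraries were used. The authors deposited whole-number read counts for each Entrez gene, beside a gene length, with no sign of normalization in the values. The tools named per the submitters' processing notes are featureCounts, without a version, and CASAVA 1.8.2, and the build is mm10. Aligner, annotation and use of strand: not given in the sources used here. Reads from genes that overlap, or lie antisense to each other, may therefore have been mixed. Exons of 16 members overlap those of another gene, for 11 members on the opposite strand. The table of the whole series matched the sample tables (0 genes differed).

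Symbols and coding status came from RefSeq (GRCm38.p6), which named 25275 of 27179 genes. The 18 further genes named by GENCODE alone added 0 members. CPM used the column totals of 16484613 (Dox) and 16960042 (untreated). A floor of 3 counts corresponds to 0.182 and 0.177 CPM. A gene with 0 counts was set to the floor for list medians. Intervals are exact Clopper-Pearson 95% intervals, taken from the Dox share of a gene's summed counts (scipy 1.17.1), and PCR copies can make them too narrow. With 1 library per group, edgeR's replicated test was not run. Scaling alternatives used edgeR 4.0.16 and DESeq2 1.42.0 in R 4.3.3. Similar transcripts were sought with blastn 2.17.0 in GENCODE, at 95% identity or more over at least 300 bases. The steps were tested on simulated counts.

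The members, roles, gene lists and motifs were chosen with earlier results of these data known, the roles and the genes shown after the values were seen, so counts over them describe and do not test. Named are members, Ikzf1, genes at the thresholds, up to 3 further genes per list with large ratios, marker genes, Tigit, copies and neighbours, the last 3 chosen after their values were seen. Sequences are those of RefSeq. The dendritic cell markers without Bst2 and Ccr9, and the gene sets set beside the members for CpG content, were chosen after seeing the data. Results for 1 gene list and 1 marker gene are not reported here.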

Additional observations from a re-analysis of the deposited data

How the results depend on the processing

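The number of members was 61 as reported. It was 65 with TMM, 64 with upper quartile and 61 with DESeq2 scaling, 61 with the untreated library thinned to the Dox total, 63 without mitochondrial, ribosomal protein and haemoglobin genes in the totals, and 61 without markers of other cell types. All 61 genes were shared with each of these sets. TMM and upper quartile scaling raise every ratio, so no member could fall below 4 there. Totals without markers of other cell types also raise every ratio slightly. They leave the members' counts as they were, so the part of other cells in these was not tested. The number was 91 at 2 CPM, 45 at 10 CPM and 57 at 5 TPM in the untreated library (51 shared), and 49 with the interval wholly at or above 4. It moved to 155 at 3-fold, 8 at 8-fold and 105 with the excluded names kept in. The 62 genes followed under 3 other scalings kept the sign of their log2 ratio, and all 186 values lay within the counting interval of the main one. Each scaling shifts every gene by the same small constant. These genes had ratios of 4 or more, so no sign could change.

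Limited to genes with at least 5 CPM in the untreated library, the number at least 2-fold higher was 6 for phosphoinositide and diacylglycerol regulators, 12 for cytokine and chemokine receptors, 10 for G protein-coupled receptors, 10 for lymphoid transcription factors, 27 for surface proteins, 5 for lipid handling genes (median log2 ratio -0.37, against 0.70 before) and 0 for developmental regulators. The number at least 2-fold lower was 1 each for phosphoinositide regulators, lymphoid transcription factors and T-cell receptor restraint genes, and 1 for phosphoinositide regulators with TMM. In windows from 150 bases before the start, 3.03% held the ETS letters, against 9.09% in the whole windows. The response element letters were then in 10.6% of windows, against 16.7%, with 6 of 13 interferon-induced members and 1 of 38 other members holding them, against 6 and 4 in the whole windows.

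No paired analysis was possible because each group has 1 library, and leaving out a replicate was not possible for the same reason. Depth limits the ratios of members least where counts exceed 1000 and most for Nlrc3 and Trio.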
